A study of Mus musculus with 4 samples.

Results

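The subject here is a group of 8 genes that restrain JAK-STAT signalling: the suppressors of cytokine signalling Socs1, Socs2, Socs3 and Cish, the protein tyrosine phosphatase genes Ptpn1, Ptpn2 and Ptpn6, and Pias1. Their members were all array probes, other than control probes, whose transcript accession belongs to one of these genes, and every such probe was kept. This gave 15 probes of 39429 on the array, and all 15 were well above background often enough to be tested, among 28933 tested probes. RNA came from C2C12 cells, a clonal mouse myoblast line that fuses into myotubes when serum is lowered, taken on day 3 of differentiation. The treated cultures had interferon-gamma (IFN-γ, labelled IFNG) at 1 ng/ml during differentiation, and the CTRL cultures were differentiated for the same time with no cytokine. Both media held horse serum, for which the labels give 2% in one place and 10% in another. Each of 4 two-colour Agilent arrays carried treated RNA in Cy5 and control RNA in Cy3, so a dye effect on a probe cannot be told apart from the treatment. The labels call the 4 hybridisations biological replicates but do not state whether each control came from its own culture, so a p-value here reflects array-to-array spread, some of it possibly technical. All 4 arrays sat on 1 slide.

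When IFN-γ binds its receptor, the kinases JAK1 and JAK2 phosphorylate a STAT protein, which enters the nucleus and starts transcription, including that of Irf1. SOCS proteins are made in answer to cytokines and close a feedback loop: SOCS1 and SOCS3 inhibit JAK kinases, whereas CIS, the product of Cish, and SOCS2 are best known for limiting STAT5 signalling downstream of growth hormone and related cytokines. The phosphatases PTP1B (Ptpn1), TC-PTP (Ptpn2) and SHP-1 (Ptpn6) remove phosphate from JAKs or STATs and are present before any cytokine arrives. PIAS1 is a SUMO ligase that limits the binding of STAT proteins to DNA. Loss of Socs1 in mice leaves IFN-γ signalling unchecked.

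The promoters of the inducible members are shown because the letters that STATs and interferon regulatory factors bind differ between them. Windows of the RefSeq table (GRCm38.p6), from 250 bases before to 50 after the start site, were read for 6 of the 8 genes. None was read for Socs2 and Ptpn2. The search of the members left out 1 mouse chromosome by choice, so a missing window need not be missing from the table. These motifs were searched on both strands: GAS, bound by STAT dimers, as TTCNNNGAA, and the core of the ISRE, bound by interferon regulatory factors, as a pair of GAAA stretches with 2 free bases between them. Capitals mark every match, 5′ to 3′ on the gene's strand. The Socs1 window lies at chr16:10785487-10785786 on the minus strand, the Socs3 window at chr11:117969317-117969616 on the minus strand and the Cish window at chr9:107296409-107296708 on the plus strand.
Socs1: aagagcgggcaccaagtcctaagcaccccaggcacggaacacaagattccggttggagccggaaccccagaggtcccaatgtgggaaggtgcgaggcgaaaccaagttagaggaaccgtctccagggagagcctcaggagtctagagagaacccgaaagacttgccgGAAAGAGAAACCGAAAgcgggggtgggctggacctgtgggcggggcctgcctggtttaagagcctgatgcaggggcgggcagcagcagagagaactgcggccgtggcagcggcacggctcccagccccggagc
Socs3: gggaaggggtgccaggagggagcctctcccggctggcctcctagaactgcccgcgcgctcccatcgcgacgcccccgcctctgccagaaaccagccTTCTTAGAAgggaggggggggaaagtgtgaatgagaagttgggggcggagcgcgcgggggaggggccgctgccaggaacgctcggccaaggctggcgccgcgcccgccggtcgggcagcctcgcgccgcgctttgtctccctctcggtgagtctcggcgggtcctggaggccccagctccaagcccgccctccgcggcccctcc
Cish: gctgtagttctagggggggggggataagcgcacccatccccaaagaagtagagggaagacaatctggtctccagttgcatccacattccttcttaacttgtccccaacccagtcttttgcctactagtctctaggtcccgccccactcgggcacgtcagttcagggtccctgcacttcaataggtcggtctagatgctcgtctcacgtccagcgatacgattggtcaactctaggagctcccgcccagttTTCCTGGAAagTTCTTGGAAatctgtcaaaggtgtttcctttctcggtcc
Socs1 held 2 matches to the ISRE core, which start 83 and 77 bases before the start site and share 4 bases, and no GAS match. Socs3 held 1 GAS match, starting 154 bases before the start site, and Cish held 2, at bases 1 and 12 from the start site, neither of them with an ISRE match. The windows of Ptpn1, Ptpn6 and Pias1 held neither motif. Of all 32851 windows in the table, 8.3% held a GAS match and 3.44% an ISRE core match. A match describes these letters only, and binding was not measured.

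Socs1 was the only one of the 8 genes that changed by at least 2-fold, and it rose on every array. A bulk ratio cannot tell more RNA per cell from more cells that make it. Its single probe had median spot intensities of 13670.5, 4878, 16776 and 11332 in Cy5 (IFN-γ), against 944.5, 599, 683 and 785 in Cy3 (control), on replicates 1 to 4. The treated channel was brighter on all 4 arrays, but Cy5 was the brighter dye throughout, with medians over all probes of 149.5 to 264 against 79.8 to 97 in Cy3. For that reason ratios below are log2 ratios of IFN-γ over control after loess, which removes the dependence of the ratio on spot intensity within each array. Socs1 then had log2 ratios of 1.98, 1.41, 1.87 and 1.73. Replicate 2 was the lowest, and normalised log2 intensities of the treated channel (11.82 to 12.70) did not overlap those of the control channel (10.41 to 10.83). The mean was 1.75 ± 0.25 (SD, n = 4), a 3.35-fold rise with an adjusted p of 0.000436 (limma, adjusted over all tested probes) and a 95% interval of 1.49 to 2.00 on the log2 scale. Over all tested probes, 1.44% were called and at least 2-fold higher, and Socs1 ranked 253 by absolute mean ratio.

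**Figure D1:**
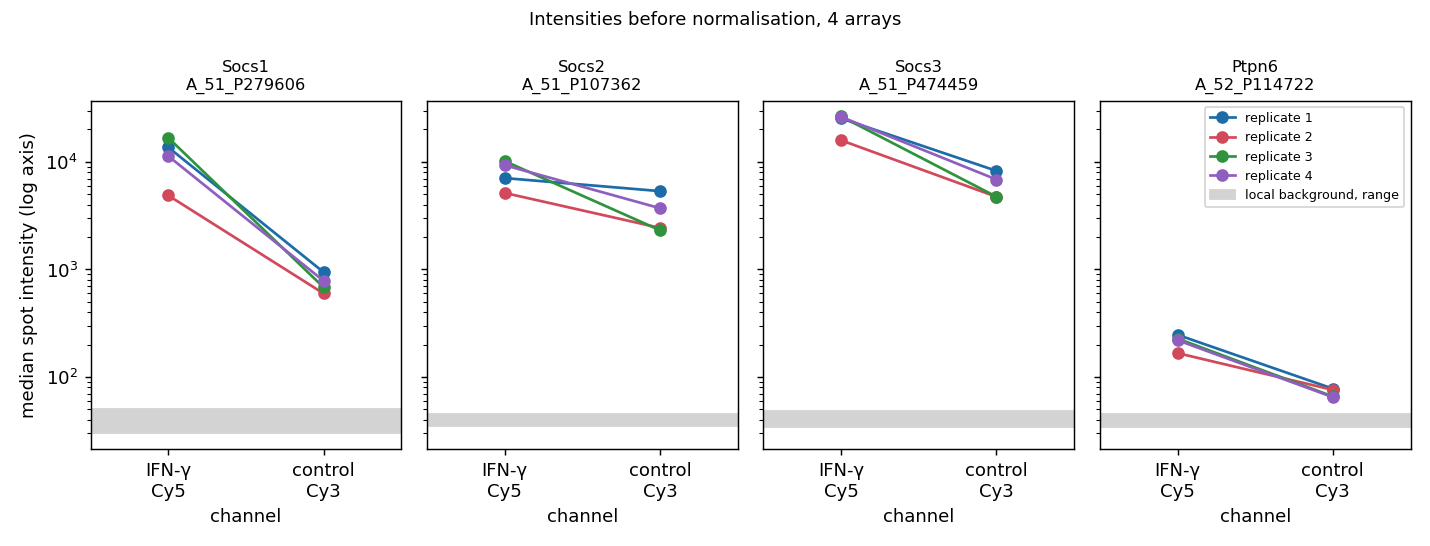
Median spot intensity as deposited (log axis) of Socs1, Socs2 (mean of 10 spots), Socs3 and Ptpn6 in the IFN-γ channel (Cy5) and the control channel (Cy3), with a line for each of 4 arrays and the range of local background in grey. The Cy5 value is higher on every line, with the steepest lines for Socs1, and Ptpn6 lies close to background.

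The place of Socs1 among all probes did not hang on loess. Among the tested probes of the same array, its ratio lay at percentiles 99.3, 98.6, 99.3 and 99.3 with loess and at 99.4, 98.7, 99.4 and 99.4 without it. The genes whose 4 ratios were most like those of Socs1, by Euclidean distance among 15607 genes, were Ifi35 (distance 0.17, mean 1.73), AA467197 (0.19, mean 1.81), Amy1 (0.19, mean 1.73) and Nod1 (0.31, mean 1.66). Ifi35 is an interferon-induced gene and Nod1 encodes an intracellular sensor of bacterial cell wall fragments.

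Socs2, a brake on growth hormone signalling, was lower with IFN-γ on its brightest probe, while its 2 other probes did not pass. Its first probe, A_51_P107362, was printed 10 times on each array, which gives a measure of technical error inside an array. The mean log2 ratio of these 10 spots was −1.44, −0.49, −0.60 and −0.79 on replicates 1 to 4, with SDs over the spots of 0.045, 0.035, 0.040 and 0.036. Spots of 1 array thus lay within a narrow band, while the arrays differed with an SD of 0.43, and replicate 1 was the lowest. The mean was −0.83 (adjusted p = 0.0151, limma), lower on 4 of 4 arrays, and −0.29 (adjusted p = 0.143) with no loess and centring on the tested probes. Centring on all probes instead moved the median of tested probes to 0.54, and Socs2, at 0.21, lay 0.32 below it. Leaving out replicate 3 or 4 gave −0.91 and −0.84, as large as with all arrays, with adjusted p of 0.0567 and 0.0697.

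The other probes of Socs2 gave smaller values. A_55_P1992834 had −0.84, 0.077, −0.31 and −0.32, with a mean of −0.35 ± 0.37 (SD, n = 4) and an adjusted p of 0.127. A_55_P1992838 had −0.57, −0.010, −0.19 and −0.36, with a mean of −0.28 ± 0.24 (SD, n = 4) and an adjusted p of 0.0877. Neither passed, although all Socs2 probes were lowest on replicate 1 and highest on replicate 2. The first probe lay below each of the others on 4 of 4 arrays, and the first minus the other gave −0.48 ± 0.14 and −0.55 ± 0.22 (SD, n = 4). Without replicate 2 all 3 probes were called lower, with ratios of −0.94, −0.49 and −0.37 and adjusted p of 0.0030, 0.0129 and 0.0129 (limma).

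**Figure D2:**
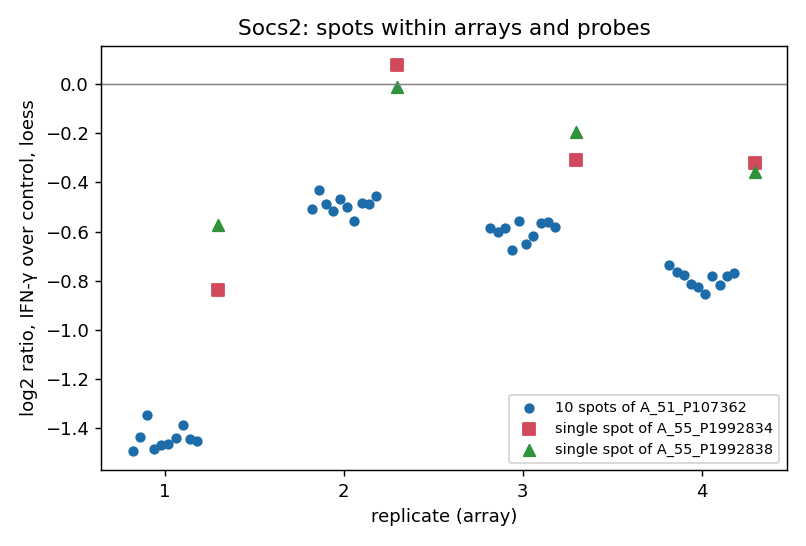
Log2 ratio of IFN-γ over control after loess for Socs2 on each of 4 arrays: circles are the 10 spots of A_51_P107362, the square and triangle are the single spots of the other probes. The circles of an array lie close together and below the other symbols on every array, and replicate 1 stands lowest.

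Before normalisation the Socs2 spots were brighter in the treated channel too. The means over the 10 spots were 7070, 5146, 10173 and 9316 in Cy5 (IFN-γ), against 5346, 2435, 2314 and 3711 in Cy3 (control). Without loess, the first probe lay at percentiles 7.99, 49.1, 51.5 and 40.5 of the tested probes on replicates 1 to 4, against 0.647, 10.5, 4.98 and 3.34 with it. On replicates 2 to 4 its unadjusted ratio was therefore near the middle of all tested probes.

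Socs3, the JAK inhibitor best known downstream of gp130 cytokines, did not pass the test. It was a bright probe, with intensities of 25356.5, 15868, 26470 and 26202 in Cy5 (IFN-γ), against 8251.5, 4735, 4745 and 6856 in Cy3 (control). Its log2 ratios were −0.24, 0.19, −0.27 and −0.20, so that 3 arrays lay close together below 0 and replicate 2 lay above. The mean was −0.13 ± 0.21 (SD, n = 4, adjusted p = 0.344), with a 95% interval of −0.36 to 0.10. Under centring on the median of all probes Socs3 had 0.92, above the tested median of 0.54, and under centring on the tested probes 0.41, both past the threshold, and without replicate 2 it was called lower at −0.23 (adjusted p = 0.0249).

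Cish, a STAT5 target gene and the founding member of the SOCS family, also did not pass. Its intensities were 323, 237, 405 and 354 in Cy5 (IFN-γ), against 136, 106, 91 and 116 in Cy3 (control), and local background was 34 to 45. The log2 ratios were −0.11, 0.043, 0.29 and 0.046, on both sides of 0, with a mean of 0.068 ± 0.17 (SD, n = 4, adjusted p = 0.568). The 95% interval of −0.13 to 0.27 leaves out a change of 2-fold under loess. Without loess its percentile on the 4 arrays was 41.7 to 49.4.

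**Figure D3:**
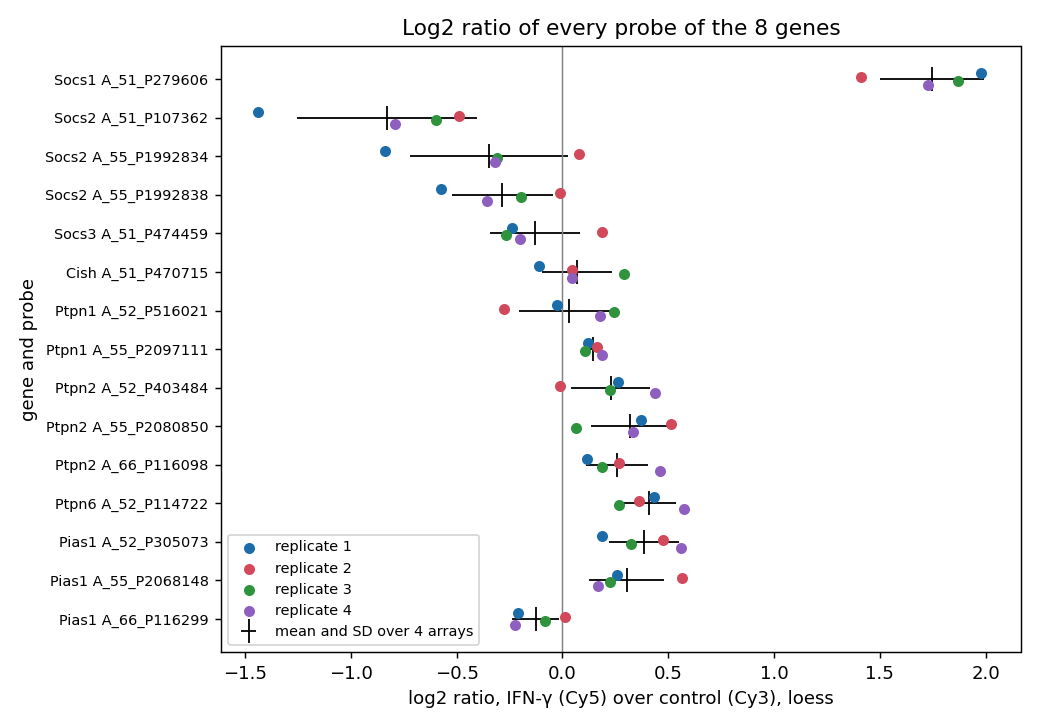
Log2 ratio of IFN-γ over control after loess for each of the 15 probes: coloured points are the 4 arrays, and the black bar is the mean with the SD. Socs1 stands alone between 1.41 and 1.98, and the first Socs2 probe is the lowest.

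Among the phosphatases, Ptpn6 rose by a small amount and Ptpn1 did not pass the test. Ptpn6, which encodes SHP-1, a phosphatase mainly of blood cells, was a dim probe. It had intensities of 247, 167, 228 and 220 in Cy5 (IFN-γ), against 78, 76, 66 and 65 in Cy3 (control), with local background of 34 to 45. Its log2 ratios were 0.43, 0.36, 0.27 and 0.57, above 0 on 4 of 4 arrays, with a mean of 0.41 ± 0.13 (SD, n = 4, adjusted p = 0.0113). The mean was 0.84 with Feature Extraction's own ratio and −0.072 under centring on the tested probes, and without replicate 4 the adjusted p was 0.0562. Without loess its percentile among the tested probes was 36.2 to 53.8 on the 4 arrays, against 80.0 to 93.2 with it.

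Since Ptpn6 is known from blood cells, markers of such cells were read beside it. Of 10 blood and immune cell markers, 8 were tested, of which 1 was called higher (Cd14, 0.59 ± 0.15), 2 lower (Csf1r, −0.40 ± 0.04, and Cd3e, −0.44 ± 0.09) and 5 did not pass. Over all genes, 18.8% were called higher and 12.9% lower. The fall of Csf1r was on its brightest probe only, and its other probes had −0.061 and 0.030 (adjusted p = 0.490 and 0.753, limma). With no loess and centring on the tested probes, the brightest Csf1r probe lay at the median of all tested probes (0.029) and Cd3e at −0.14 (adjusted p = 0.214). Ptprc, which marks nearly all white blood cells, had a control channel that cleared background on 1 of 4 arrays, so no change is read from its ratio. Cd68 and Tyrobp were not tested. The summed normalised intensity of the 8 lay between 45492 and 72162 in the IFN-γ channel and between 57139 and 80568 in the control channel, and Itgam, a bright probe with −0.14 ± 0.35 (adjusted p = 0.489), made up nearly all of it. Without Itgam the sum of the other 7 was 2253 to 2519 in the IFN-γ channel and 2418 to 2709 in the control channel. The RNA came from the clonal C2C12 line, as said above, and whether any other cells had a part in the Ptpn6 value was not tested.

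Ptpn2 encodes TC-PTP, which dephosphorylates the kinases JAK1 and JAK3. Its brightest probe, A_55_P2080850, had 0.37, 0.51, 0.065 and 0.33, with a mean of 0.32 ± 0.19 (SD, n = 4, adjusted p = 0.0399). A_66_P116098, designed on another transcript of the gene, had 0.12, 0.27, 0.19 and 0.46, a mean of 0.26 ± 0.15 (SD, n = 4) and an adjusted p of 0.0514. The dim probe A_52_P403484 had 0.26, −0.013, 0.23 and 0.44, a mean of 0.23 ± 0.19 (SD, n = 4) and an adjusted p of 0.0994. The 3 means lay close to each other after loess, on both sides of the threshold, but the dim probe, whose control channel cleared background on 3 of 4 arrays, had 0.65 (adjusted p = 0.0238) with Feature Extraction's ratio, against 0.29 and 0.24 for the others. The call of the brightest probe was lost with Feature Extraction's ratio (0.29, adjusted p = 0.0961) and without replicate 1, 3 or 4 (0.30 to 0.41, adjusted p from 0.0506 to 0.139). With no loess and centring on the tested probes, the brightest, A_66_P116098 and the dim probe had 0.84, 0.61 and −0.34, all past the threshold. Centred on all probes they had 1.34, 1.12 and 0.17, against a median of tested probes of 0.54, and the dim one did not pass.

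Ptpn1 encodes PTP1B, a phosphatase of JAK2, TYK2 and the insulin receptor. Its brighter probe, A_52_P516021, had −0.025, −0.27, 0.24 and 0.18, a mean of 0.031 ± 0.23 (SD, n = 4) and an adjusted p of 0.846. The dim probe A_55_P2097111, whose control channel cleared background on 2 of 4 arrays, had 0.12, 0.16, 0.11 and 0.19, a mean of 0.14 ± 0.037 (SD, n = 4) and an adjusted p of 0.112. Neither value passed in the main setting. The dim probe had 0.24 (adjusted p = 0.0456) without background subtraction and 0.71 (adjusted p = 0.0608) with Feature Extraction's ratio, so its size is not settled. Under median centring the brighter probe passed at 1.05 (all probes) or 0.54 (tested probes), and the dim one had −0.65 when centred on the tested probes.

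Pias1 was measured by 3 probes that did not agree. A_52_P305073 had 0.19, 0.48, 0.32 and 0.56, a mean of 0.39 ± 0.16 (SD, n = 4) and an adjusted p of 0.0183. A_55_P2068148 had 0.26, 0.57, 0.22 and 0.17, a mean of 0.30 ± 0.18 (SD, n = 4) and an adjusted p of 0.0430. A_66_P116299, the brightest, had −0.21, 0.014, −0.084 and −0.22, a mean of −0.13 ± 0.11 (SD, n = 4) and an adjusted p of 0.219. After loess the first of these lay above the third on 4 of 4 arrays, as did the second. The disagreement was then larger than the spread between arrays: the third minus the first was −0.51 ± 0.18 and the third minus the second −0.43 ± 0.11 (SD, n = 4). With no loess and centring on the tested probes, the first had 0.88, the second 0.25 (adjusted p = 0.0916, limma) and the third 0.38 (adjusted p = 0.00915). The third thus lay above the second in that setting, and all 3 were above 0. All 3 carry the same transcript accession, and the probe sequences, which could place them in the transcript, were not used here. With the mean of the 3 probes Pias1 had 0.19 and did not pass (adjusted p = 0.0756, limma, adjusted over genes). By the mean of their own probes Socs2 passed at −0.49 (adjusted p = 0.0314) and Ptpn2 at 0.27 (adjusted p = 0.0228). Ptpn1 did not, at 0.087 (adjusted p = 0.357). A_52_P305073 lost its call without replicate 3 or 4 (0.41 and 0.33, adjusted p = 0.0764 and 0.0837, limma), and A_55_P2068148 without replicate 1, 3 or 4 (0.32 to 0.35, adjusted p from 0.0933 to 0.119), with ratios about as large as with all arrays. With Feature Extraction's ratio they had 0.35 and 0.42 (adjusted p = 0.0570 and 0.115).

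In total, 5 of the 15 probes were called higher and 1 lower, against 16.5% and 12.6% of all tested probes (29.1% in either direction). The ratio had the same sign on all 4 arrays for 9 of the 15, against 49.2% of all tested probes. Normalised intensities of the channels did not overlap for 6 probes higher with IFN-γ and 1 lower, against 17.7% and 11.7%. Taking the brightest probe of each gene, 3 of 8 genes were higher (Socs1, Ptpn6 and Ptpn2) and 1 lower (Socs2), against 18.8% and 12.9% of all genes (31.7% in either direction). With so few members these counts are a description. The count of probes called higher was 3 with Feature Extraction's ratio and 12 under centring on all probes, and it was 3, 7, 2 and 1 without replicates 1, 2, 3 and 4 in turn, while the count called lower was 1, 4, 0 and 0. Apart from Socs1, no member reached 2-fold in the loess fit.

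**Figure D4:**
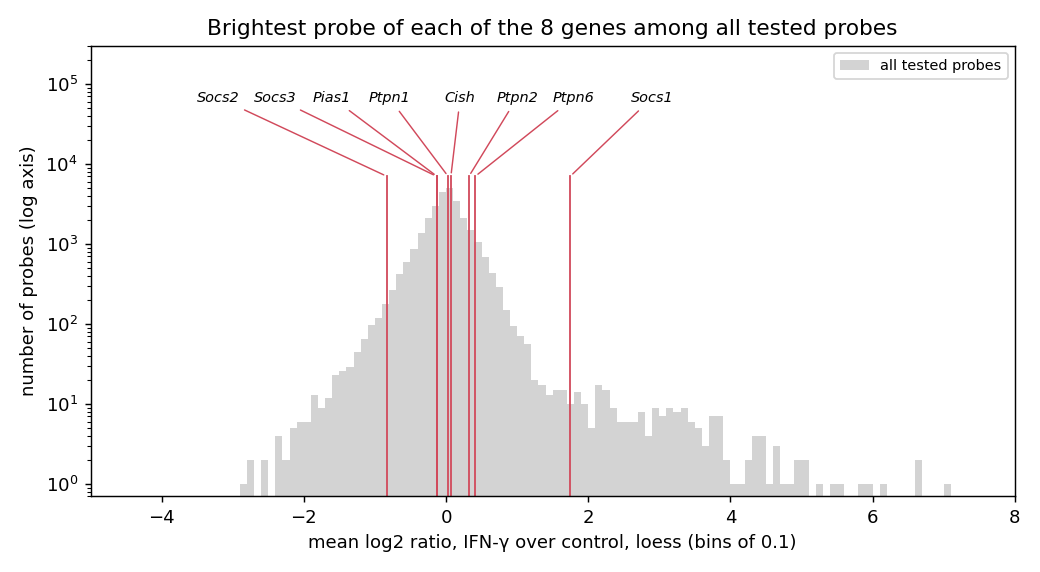
Number of tested probes (log axis) by mean log2 ratio of IFN-γ over control after loess, in bins of 0.1, with red lines at the brightest probe of each of the 8 genes. Socs1 lies in the upper tail at 1.75, Socs2 in the lower part at −0.83, and the other 6 within the central peak.

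In the order of their brightest probes the genes ran Socs1, Ptpn6, Ptpn2, Cish, Ptpn1, Pias1, Socs3, Socs2. Socs1 exceeded Ptpn6, the next, by 1.34 ± 0.28 (SD, n = 4) and Socs3 exceeded Socs2 by 0.70 ± 0.37, each on 4 of 4 arrays. The neighbours between Ptpn6 and Socs3 differed by 0.0044 to 0.25 on average, less than the SD of each difference over the arrays. Socs1 minus each other member gave 7 differences between 1.34 for Ptpn6 and 2.58 for Socs2, positive on 4 of 4 arrays. An exact test by flipping signs cannot go below 0.125 with 4 arrays and so cannot pass the threshold.

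**Figure D5:**
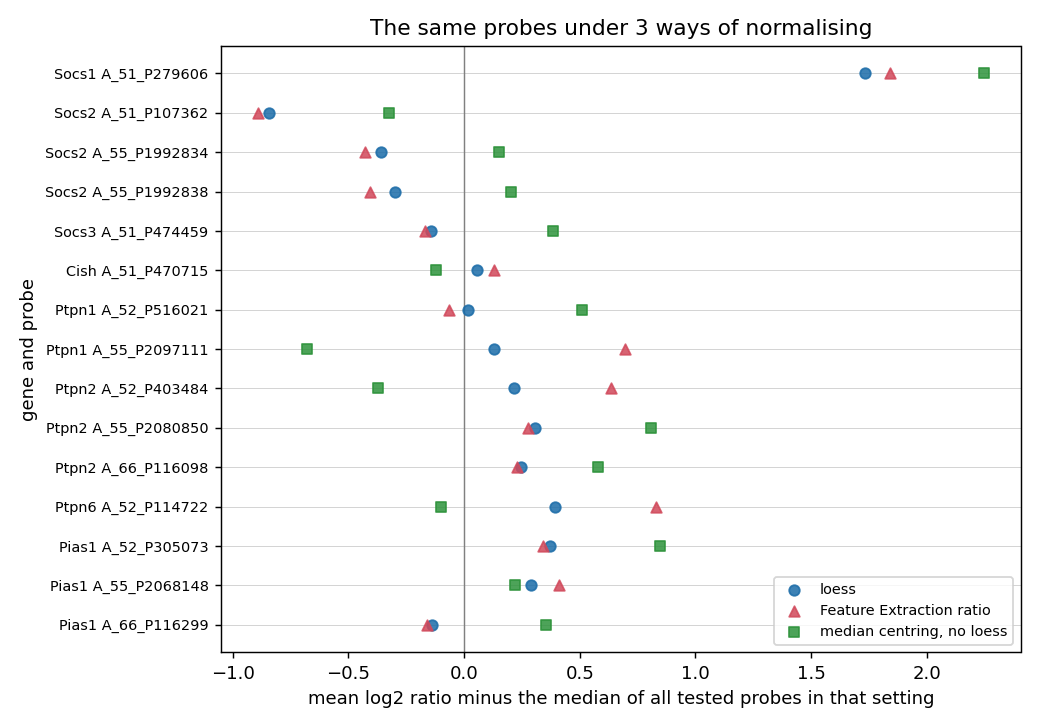
Mean log2 ratio of IFN-γ over control of each of the 15 probes, minus the median of all tested probes in the same setting, with loess (circles), Feature Extraction's ratio (triangles) and median centring without loess (squares). Socs1 stays above 1.7 in all of them, the bright probes of Socs2, Socs3 and Ptpn1 shift to the right without loess, and the dim probes of Ptpn1, Ptpn2 and Ptpn6 shift to the left.

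The genes around these brakes give the setting. Of 9 genes from the IFN-γ receptor to STAT and IRF factors, 4 rose, 1 was called lower and 4 missed the threshold. Over all genes, 18.8% were called higher and 12.9% lower. The median of the 9 was 0.27 against 0.03 over all genes. Irf1 rose by 2.74 ± 0.20, Irf9 by 2.24 ± 0.11 and Stat2 by 2.23 ± 0.11, each more than Socs1 on average, although the second probe of Irf1 had 0.29. Stat3, the STAT that drives Socs3 behind gp130 receptors, had −0.65 ± 0.44 (adjusted p = 0.0349) on its brighter probe and 0.16 on the other, and −0.11 (adjusted p = 0.608) on the first with no loess and centring on the tested probes. It kept its size but not its call without replicate 1, 3 or 4 (−0.80 to −0.63, adjusted p from 0.0527 to 0.132), and Ifngr1 had 0.25 ± 0.20. Stat3, Socs5, Socs7 and the blood markers were named after their values were seen.

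As over all genes, of which 18.8% were called higher and 12.9% lower, genes listed as other brakes were called in both directions. Among 19 such genes there were 6 called higher (2 without replicate 3), 3 called lower and 10 that missed the threshold, and their median was 0.15. Usp18, which restrains type I interferon receptors, rose by 2.55 ± 0.33, above Socs1. Nmi, an interferon-induced STAT-binding protein kept in the list though not an established brake, rose by 2.34 ± 0.11, also above Socs1. Dusp3, a phosphatase, had −0.94 ± 0.15 (adjusted p = 0.00148, and −0.43 with no loess and centring on the tested probes), and Ptpn11, which encodes SHP-2, had −0.061 ± 0.15. In the SOCS family outside the members, Socs5 rose by 0.59 ± 0.32 (adjusted p = 0.0203, but 0.0502 with Feature Extraction's ratio, 0.0895 without replicate 3 and 0.0588 without replicate 4), Socs7 had −0.50 ± 0.16 (adjusted p = 0.00824, but at the median of all tested probes, 0.036, with no loess and centring on those probes), and Socs4 and Socs6 did not pass.

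As over all genes, of which 18.8% were called higher and 12.9% lower, genes listed as partners of the members were called in both directions. Of 6 genes of elongin and cullin ubiquitin ligases, the type that the SOCS box recruits, 2 rose (Cul2 by 0.66 ± 0.10 and Cul5 by 0.43 ± 0.31). Another 1 fell (Eloc, −0.51 ± 0.26) and 3 did not pass, among them Elob with −0.042 ± 0.30. Cul5 lay near the threshold (adjusted p = 0.0473, limma). It lost its call with Feature Extraction's ratio (0.40, adjusted p = 0.0996) and without replicate 1, 3 or 4 (0.36 to 0.53, adjusted p from 0.0516 to 0.176). Eloc lay at the median of tested probes (0.030) with no loess and centring on those, and other probes of Cul2 had −0.25 to 0.32 and of Eloc 0.30, and the count called higher was 4 without replicate 2 and 1 without any other array. Of 9 SUMO conjugation genes, whose system PIAS1 belongs to, 2 rose (Uba2 by 0.66 ± 0.08 and Senp1 by 0.52 ± 0.18), 1 fell (Senp3, −0.37 ± 0.11, 0.16 with no loess and centring on the tested probes, and 0.49 on its second probe) and 6 did not pass. Sumo2 had 0.038 ± 0.19 on its brightest probe, while its 4 other probes had 0.61 to 0.74 and were called higher. Without replicate 2, 4 of the SUMO genes were called higher, and without replicate 3 or 4, 0 were called lower.

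Of 14 other non-receptor tyrosine phosphatase genes 12 were tested, of which 4 rose, 1 was called lower (2 without replicate 2) and 7 missed the threshold. The median was 0.014. Ptpn13 rose by 0.96 ± 0.28 and Ptpn12 by 0.65 ± 0.15, and Ptpn21 had −1.31 ± 0.26 (adjusted p = 0.00142). The values of Ptpn6 and Ptpn2 thus lay inside the range of their family. Of 19 other JAK, STAT and receptor genes 4 were called higher, 4 lower and 11 neither, and the median was 0.049. Without replicate 1, 3 or 4 these counts were 2 higher and 1 lower. Over all genes, 18.8% were called higher and 12.9% lower with all arrays. Ghr, the growth hormone receptor that SOCS2 restrains, rose by 0.64 ± 0.22, with 0.30 on its second probe. Lepr had −0.86 ± 0.50 and Csf2rb −0.71 ± 0.19, both past the threshold, with 0.39 on the second probe of Csf2rb. Lepr lost its call without replicate 1, 3 or 4 (−0.95 to −0.64, adjusted p from 0.0517 to 0.0965), and Il11ra1 had 0.12 ± 0.15.

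All 8 skeletal muscle markers were well above background in both channels on all arrays, and so were all 4 tested fibroblast markers. Of the 8 tested blood and immune markers, 8 cleared it on all arrays in Cy5 and 6 in Cy3. Of the 3 tested endothelial markers, 3 and 2 did. Detection alone thus did not set the muscle markers apart and is no check of the cell label. Of the muscle markers 0 were called higher and 5 lower with IFN-γ. Of 3 tested endothelial markers the counts were 0 and 1, and of 4 tested fibroblast markers 3 and 0 (limma). Over all genes, 18.8% were called higher and 12.9% lower. Replicate 2 correlated least with the other arrays (Pearson's r of 0.54 to 0.66 across tested probes, against 0.85 to 0.89 among replicates 1, 3 and 4), and it was the array on which Socs1 was lowest and all probes of Socs2, and Socs3, were highest.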

How the data were processed

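Agilent Feature Extraction 10.7.3.1 made the deposited spot intensities, per the file headers. Median spot and local background intensities were used, and the log10 ratio (red over green) that the authors deposited served as an alternative. The authors' deposited value table is on the log2 scale, with a slope of 3.32 and r of at least 0.999 against those log10 ratios over tested probes. Its column medians lay between −0.124 and −0.105, and its centring stays unknown.

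Median intensities were corrected with normexp (offset 50) and log2 ratios of IFN-γ over control normalised within arrays by loess (limma 3.58.1, R 4.3.3). Control spots had weight 0, spots flagged as outliers were dropped, and repeated spots of a probe were averaged. Accessions were named through RefSeq's gene table (26055 of 39429 probes matched 1 gene and 13374 none). A probe was tested if 1 of its channels was well above background on at least 3 of 4 arrays. Mean ratios were tested against 0 with lmFit and eBayes (two-sided), with Benjamini-Hochberg adjustment over 28933 probes and a threshold of 0.05. Adjusted p-values are from this limma fit unless another is named. Context lists use each gene's brightest tested probe; up to 3 called genes of each with the largest change and the brightest that did not pass are named, except that muscle, endothelial and fibroblast markers are given as counts. The fit was tested on simulated data. The members and lists were chosen with earlier results of these data known. The files' design build (mm9) differs from that of the promoter table, whose coordinates are its own. The number of arrays limits the precision. The alternatives tried are in the closing section. A result for 1 gene of the receptor list is not reported here.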

Additional observations from a re-analysis of the deposited data

Results flagged for a closer look

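Of 45 log2 ratios examined over the 4 arrays, 2 had 1 array far from the other 3 (by Dixon's test of the gap over the range), and chance alone puts about 1 in 20 such groups past that limit. Socs3 had 0.19 on replicate 2, against −0.27 to −0.20 on the others. Ptpn13 had 0.53 on replicate 2, against 1.05 to 1.14 on the others. Both were on replicate 2, whose correlation with the rest was the weakest, and the part of that array in these values was not tested.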

How the results depend on the processing

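Socs1 kept its direction and its call in all 15 alternatives, between 1.67 and 2.79. These are not independent: other filters on dim probes and summaries over a gene's probes leave its ratio at 1.75. Feature Extraction's ratio and the value table both gave 1.85. Median centring without loess keeps any dependence of the ratio on intensity, and the cause of each change below was not tested further. Centring on all probes put the median of tested probes at 0.54. There the probes of Socs2 had 0.21, 0.69 and 0.74, Socs3 0.92, Cish 0.42, Ptpn1 1.05 and the brightest Pias1 probe 0.89. Socs7 had 0.54, Ptpn11 1.00, Dusp3 0.074, Stat3 0.40, Elob 1.02, Eloc 0.54, Senp3 0.67, Csf1r 0.54 and Cd3e 0.36. Of these the first Socs2 probe, Cish, Dusp3, Stat3 and Cd3e lay below that median. The change from loess differed between probes even relative to the tested median. Socs3 went from −0.14 with loess to 0.38 without it, and Ptpn6 from 0.40 to −0.10. Centred on the tested probes, Socs2 had −0.29, Socs3 0.41, Ptpn1 0.54 and −0.65 on its dim probe, the dim Ptpn2 probe −0.34, Ptpn6 −0.072 and the brightest Pias1 probe 0.38, while Socs7 had 0.036, Ptpn11 0.49, Elob 0.51, Eloc 0.030, Senp3 0.16 and Csf1r 0.029. The brightest Ptpn2 probe lost its call at 0.29 with Feature Extraction's ratio and with the authors' value table, at 0.31 with a normexp offset of 10 and at 0.32 by the methods' unpaired test on channel values.

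The counts of probes called higher and lower were 4778 and 3633, but 16803 and 5941 centred on all probes, 10483 and 10983 centred on tested probes, and 3951 and 2364 by the methods' test (56.8% of called probes were higher, 73.9% centred on all probes). At least 2-fold there were 418 and 323, but 7289 and 34 centred on all probes, 1411 and 2979 centred on tested probes, 1358 and 829 with Feature Extraction's ratio, 1356 and 828 with the value table, and 497 lower with an offset of 10. Of the 15 member probes 12 were higher and 0 lower centred on all probes, 2 lower centred on tested probes, and 3 higher with Feature Extraction's ratio, the value table and an offset of 10. The methods' test called 6315 of 28933 probes after adjustment and 10721 before, and Socs1 alone of the members at 2-fold.

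List medians centred on all and on tested probes were 0.87 and 0.36 for other brakes, 1.32 and 0.81 for the receptor path, 0.74 and 0.24 for other JAKs, STATs and receptors, 1.17 and 0.66 for SOCS box partners, 1.10 and 0.60 for SUMO genes, and 0.73 and 0.22 for phosphatases. Other brakes had 0.20 with Feature Extraction's ratio, the value table and the offset of 10, and phosphatases 0.33 with the first 2 and 0.23 over probes above background in both channels of every array.

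Leaving out 1 array gave Socs2 −0.94 to −0.63, Socs3 −0.23 to −0.084, Ptpn2 0.26 to 0.41 and Ptpn6 0.35 to 0.46. Probes called higher ran from 1910 to 6326 and lower from 1153 to 5548, lowest without replicate 3 and highest without replicate 2 (2918 and 1954 without replicate 1, 2139 and 1268 without replicate 4), those 2-fold lower from 206 to 438, member probes higher from 1 to 7 and lower from 0 to 4, and the median of other JAKs, STATs and receptors from 0.055 to 0.14. Socs1 minus the other members stayed positive throughout. No member was below background in the control channel on all 4 arrays (the dim probes of Ptpn1 and Ptpn2 cleared it on 2 and 3), so the alternative with a bound was not run. No further paired analysis was run, because the main test is itself paired: each array's ratio sets treated RNA against control RNA. The methods' unpaired test is its alternative.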
